A study of Homo sapiens with 12 samples.

Results

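FTH1, FTL, NCOA4, TFRC, SLC11A2, SLC40A1, IREB2, BLVRA, BLVRB and GPX4 store, release, take up, export or sense iron, break down the product of heme cleavage, or remove the lipid peroxides that iron helps to form. These 10 genes were picked by symbol, and each matched 1 of the 58735 gene rows of an RNA sequencing table. The table covers 2 human lines with a wild-type label, KGN and COV434, each with 3 libraries titled control, here called untreated, and 3 libraries of cells treated with 77-39 for 72 h. The compound 77-39 is a small-molecule inhibitor of SIRT3, a mitochondrial deacetylase, and its labelled dose reads 10 μm/ml, a unit that is ambiguous. The treatment note also stands on the untreated libraries, so treatment was taken from the titles. According to the study's methods, KGN comes from an adult-type and COV434 from a juvenile-type granulosa cell tumor, an ovarian stromal tumor. No label says that the libraries of a group are separate cultures, so the p-values measure only the spread between these libraries, which may be technical.

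The libraries went against their line labels and are named by label throughout. FOXL2, a transcription factor of granulosa cells, had 2 reads over the 6 libraries labelled KGN, against a mean of 12.4 FPKM (fragments scaled to transcript length and to the library's total) in the untreated libraries labelled COV434. SMARCA2 and SMARCA4, the ATPases of the SWI/SNF chromatin remodeler and both known to be absent from COV434 cells, stood at 5.65 and 9.22 FPKM there, and at 0.00773 and 2.58 FPKM in the untreated libraries labelled KGN. These are RNA levels, and neither protein was measured here. FSHR, the follicle-stimulating hormone receptor, had 0 reads in all 12 libraries. Of the 10 granulosa markers, AMH and INHA were present under both labels. They averaged 4.55 and 1.06 FPKM untreated with the label KGN, and 8.24 and 4.75 FPKM with the label COV434. The markers other than FOXL2, AMH and INHA averaged under 1 FPKM in both untreated groups. The summed level of 8 epithelial markers ranged from 0.186 to 0.343 FPKM with the label KGN, where KRT7 and KRT19 had 0 reads. With the label COV434 it ranged from 792 to 984 FPKM. Most of that came from keratins, with KRT7, KRT8, KRT18 and KRT19 averaging 406, 221, 201 and 40.6 FPKM in untreated libraries. EPCAM (0.0158 FPKM) and CDH1 (0.0519 FPKM) were near 0 in these libraries, and ESRP1 had 0 reads. The summed level of 6 fibroblast markers was 14.7 to 16 FPKM untreated with the label KGN and 76.1 to 198 FPKM with the label COV434. LUM made up most of it, averaging 12.6 and 118 FPKM, while COL1A2 and PDGFRA were lower with the label COV434. Each line is 1 labelled source, so line and every feature of its source cannot be told apart.

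Reads on genes numbered 15547851 to 18280415 per library. Mitochondrially encoded genes took 7.3% to 8.81% of them with the label KGN and 7.71% to 13.51% with the label COV434. All libraries are bulk RNA, in which fewer cells of a type and less RNA per cell cannot be told apart.

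Cells import iron bound to transferrin through the transferrin receptor TFRC, and the transporter SLC11A2 (DMT1) moves it out of endosomes. Surplus iron is stored in ferritin, a shell of FTH1 heavy and FTL light chains, NCOA4 carries ferritin to lysosomes for breakdown, and SLC40A1 (ferroportin) exports iron. The iron regulatory proteins, ACO1 and IREB2, bind hairpins in messenger RNA called iron-responsive elements when iron is scarce: an element in the 5′ untranslated region (UTR) then holds back translation, and elements in the 3′ UTR of TFRC protect its transcript. HMOX1 cleaves heme into iron, carbon monoxide and biliverdin, which BLVRA and BLVRB reduce, and GPX4 is the glutathione peroxidase that holds back ferroptosis, the iron-dependent death by lipid peroxidation.

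The hairpins are shown because they mark some of the members through which the iron regulatory proteins are known to act. A search of the UTRs of GENCODE 29 transcripts on GRCh38, on the sense strand alone, took a C, 5 bases, the loop CAGTGN or CAGAGN (in capitals below), and 5 bases pairing with the first 5, with G and T allowed to pair. Each match is printed in 27 bases as DNA, 5′ to 3′.
FTH1, 5′ UTR, exon 1, chr11:61967575-61967601, minus strand: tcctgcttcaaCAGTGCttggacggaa
FTL, 5′ UTR, exon 1, chr19:48965336-48965362, plus strand: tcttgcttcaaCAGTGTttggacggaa
SLC40A1, 5′ UTR, exon 1, chr2:189580662-189580688, minus strand: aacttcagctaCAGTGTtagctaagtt
TFRC, 3′ UTR, exon 19, chr3:196051030-196051056, minus strand: tttatcagtgaCAGAGTtcactataaa
TFRC, 3′ UTR, exon 19, chr3:196050980-196051006, minus strand: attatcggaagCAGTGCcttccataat
TFRC, 3′ UTR, exon 19, chr3:196050576-196050602, minus strand: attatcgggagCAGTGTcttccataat
TFRC, 3′ UTR, exon 19, chr3:196050511-196050537, minus strand: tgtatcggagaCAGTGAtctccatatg
TFRC, 3′ UTR, exon 19, chr3:196050464-196050490, minus strand: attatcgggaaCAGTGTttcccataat

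The FTH1 and FTL windows were identical at 25 of 27 bases. The TFRC windows were written in transcript order, and the second and the third of them were identical at 25 of 27. No match was found in the UTRs of the other 6 members, which says only that these letters are not there. An element whose stem pairs imperfectly would be missed, so these members, SLC11A2 among them, may still hold one. Of 19702 protein-coding genes, 0.437% held a match in a 5′ UTR and 1.284% in a 3′ UTR. The match lay in 7 of 8 coding transcripts of FTH1, in the single one of FTL, in 1 of 5 of SLC40A1 and in 3 of 4 of TFRC.

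**Figure D1:**
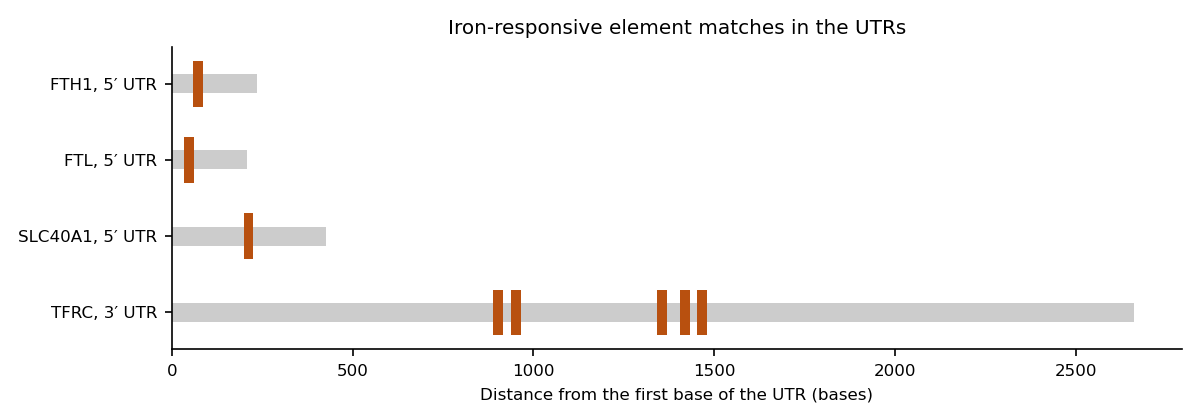
Position of the iron-responsive element matches (bars of 27 bases) along the UTRs of FTH1, FTL, SLC40A1 and TFRC, in bases from the first base of each UTR (grey). The 5′ UTR matches start at base 60 of 235 in FTH1, 36 of 207 in FTL and 200 of 427 in SLC40A1, and the 5 TFRC matches start at bases 889 to 1455 of 2661.

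The first comparison asked how the members responded to 77-39 in the libraries labelled KGN. Both ferritin chains and the biliverdin reductase BLVRB rose and TFRC fell, with FTL moving most, to 1.86 times its untreated level. NCOA4, SLC11A2, IREB2, BLVRA and GPX4 did not pass the test, and SLC40A1 had too few reads to be tested. Thus 4 of 9 tested members passed an adjusted p-value of 0.05 in limma, 3 higher and 1 lower, where 34% of the 12671 genes tested passed, 17.6% higher and 16.4% lower. The median difference in log2(FPKM + 1) was 0.10 over the 9 members and 0.01 over all genes tested. Without untreated library 3, FTL alone of the 9 passed.

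In the libraries labelled COV434, none of the 9 tested members passed an adjusted p-value of 0.05 in limma, where 0.0415% of the 12060 genes tested did. FTL had an unadjusted p-value of 0.0173, the only one of the 9 below 0.05, where 8% of all genes were. The limma-voom fit on recovered reads also called 0 of the 9, and with the library number as a block it called 1, FTL. Library numbers were taken as pairing the samples in this line, a choice read from these same data, and the block without voom called 0. With that block in limma, 3 of the 9 had an unadjusted p-value below 0.05, where 14.4% of all genes did. They were FTL (0.000961), BLVRB (0.00255) and FTH1 (0.0309, limma). The treated FTH1 library was 1.86, 1.44 and 1.01 times the untreated library of the same number, so pair 3 hardly differed.

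**Figure D2:**
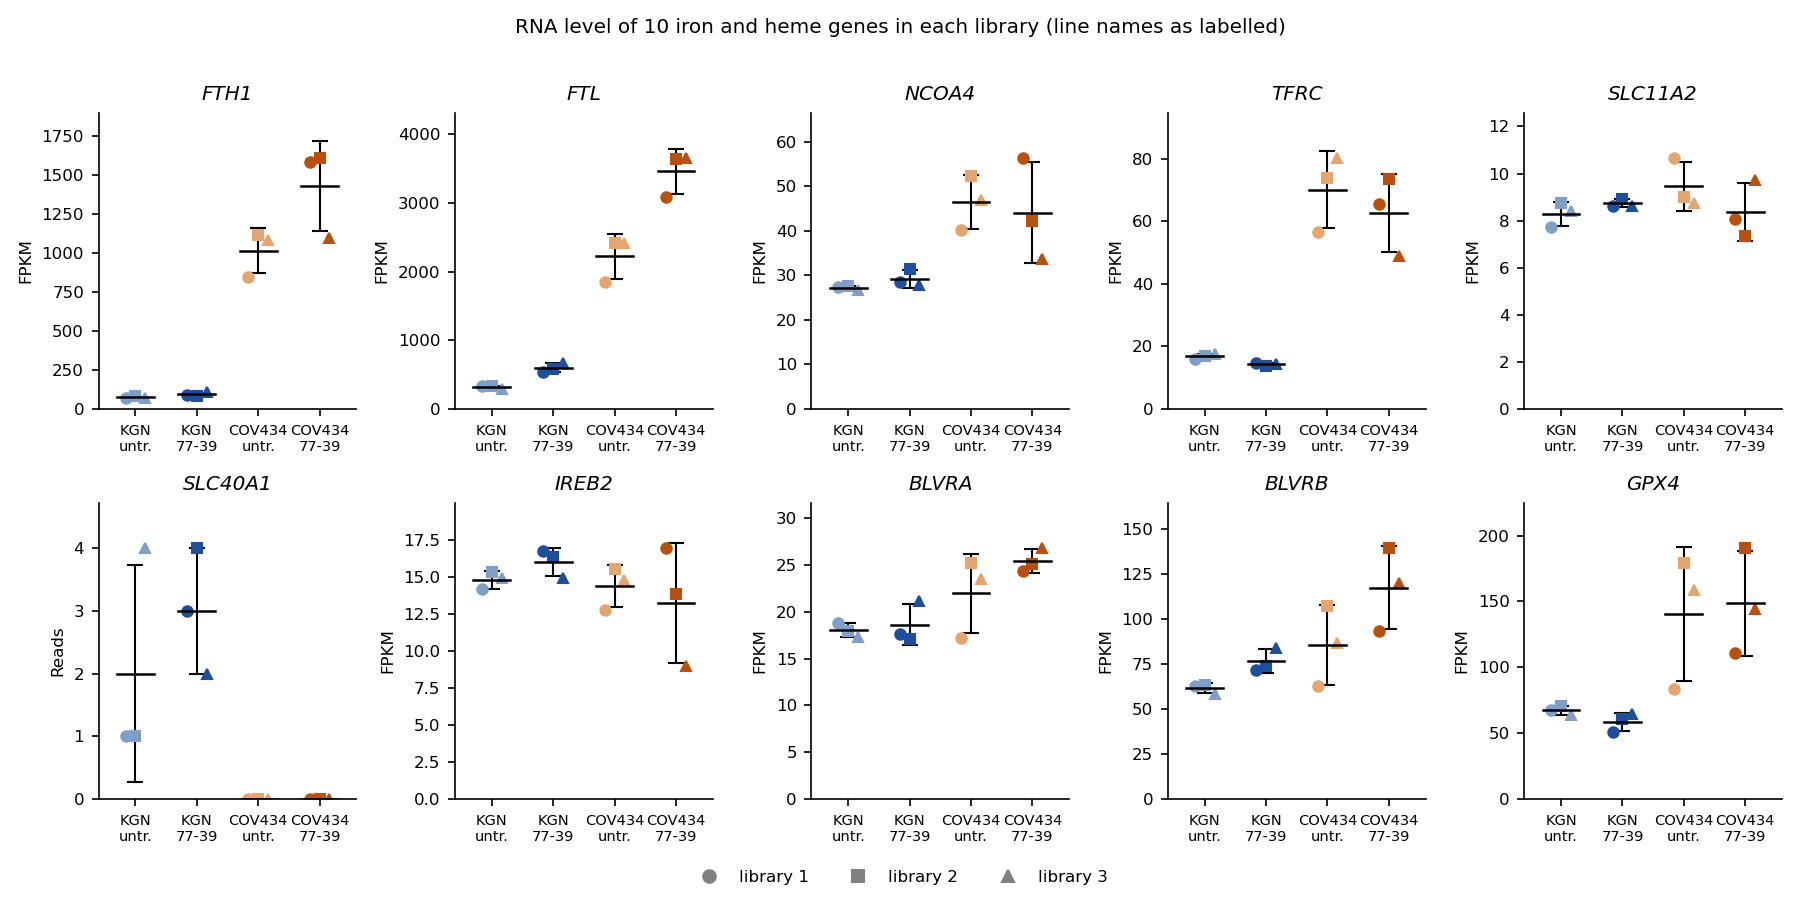
Level of each of the 10 genes in every library, in FPKM (reads for SLC40A1), by labelled line and treatment, with the symbol giving the library number and lines giving the mean and SD of 3 libraries. FTL in treated libraries lies above the untreated ones in both lines, and FTH1 and FTL lie far higher in the libraries labelled COV434.

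FTH1 (ENSG00000167996, chr11:61959718-61967660), the ferritin heavy chain that oxidises iron for storage, stood at 72.2, 80.8 and 73.3 FPKM in untreated libraries 1, 2 and 3 labelled KGN and at 91.9, 84.7 and 107 FPKM in treated ones. All treated libraries lay above all untreated ones, as in 26.3% of genes tested in this line. The log2 difference was 0.32 with an SE of 0.092 (adjusted p = 0.0358, limma). This call was lost in 8 of 15 alternatives, among them without untreated library 1 (adjusted p = 0.0825), untreated 3 (0.105), treated 1 (0.0777) and treated 3 (0.0552). In the libraries labelled COV434, FTH1 read 849, 1113 and 1086 FPKM untreated and 1581, 1608 and 1097 FPKM treated. Treated library 3 lay within the untreated range and the other two lay above it. The log2 difference of 0.48 had a 95% interval of -0.05 to 1.01 (adjusted p = 0.684, limma).

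FTL (ENSG00000087086, chr19:48965301-48966878), the light chain that helps to form the iron core, stood at 332, 333 and 295 FPKM in untreated libraries labelled KGN and at 542, 587 and 670 FPKM in treated ones. The groups were well apart. The log2 difference was 0.90 with an SE of 0.094 (adjusted p = 0.000989, limma), and it stayed past the threshold in all 15 alternatives. Levels in the libraries labelled COV434 were 1848, 2413 and 2410 FPKM untreated and 3083, 3638 and 3651 FPKM treated. Again no treated library overlapped an untreated one, as in 6.23% of genes tested in this line. The treated library was 1.67, 1.51 and 1.51 times the untreated library of the same number. The log2 difference of 0.64 had an SE of 0.22 (adjusted p = 0.433, limma). The adjusted p-value was 0.0757 with the block in limma and 0.00523 with voom and the block. It was 0.0403 with all 12 libraries in 1 limma fit, which gives FTL 1 spread for both lines. As that spread was smaller with the label KGN, the setting lowers the p-value here.

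The ratio of FTL to FTH1 in FPKM, which describes the balance of light and heavy chain transcripts, was 4.6, 4.13 and 4.03 in untreated libraries labelled KGN and 5.89, 6.93 and 6.27 in treated ones. It did not overlap between these groups. In the libraries labelled COV434 it was 2.18, 2.17 and 2.22 untreated and 1.95, 2.26 and 3.33 treated, and here the treated values spanned the untreated ones. Ferritin genes have processed pseudogenes that can share their reads. The 25 FTH1 pseudogene rows held 4859 reads against 263808 on FTH1, led by FTH1P7 (chr13:22696023-22696574) with 2719, and the 16 FTL rows held 212 against 291654. The pseudogene reads were 1.22 to 3.71 per 100 reads on FTH1 and 0.0349 to 0.215 per 100 on FTL across libraries.

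NCOA4 (ENSG00000266412, chr10:46005088-46030714), the receptor that takes ferritin to lysosomes, stood at 27.4, 27.6 and 26.7 FPKM in untreated libraries labelled KGN and at 28.4, 31.4 and 27.7 FPKM in treated ones. The treated libraries lay just above the untreated ones, but the difference of 0.10 in log2 did not pass (95% interval -0.04 to 0.23, adjusted p = 0.223, limma). With the label COV434 it read 40.1, 52.3 and 46.9 FPKM untreated and 56.3, 42.2 and 33.7 FPKM treated. Treated values lay on both sides of the untreated ones, with a log2 difference of -0.10 and a 95% interval of -0.58 to 0.39.

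TFRC (ENSG00000072274, chr3:196027183-196082189) was the member that fell. It stood at 16.1, 16.9 and 17.6 FPKM in untreated libraries labelled KGN and at 14.6, 13.8 and 14.3 FPKM in treated ones. Every treated library was below every untreated one, as in 23.4% of genes tested, and the log2 difference was -0.23 with an SE of 0.049 (adjusted p = 0.0131, limma). The call was lost without untreated library 3 (adjusted p = 0.0502), without treated library 2 (0.0553) and with all 12 libraries in 1 fit (0.42). TFRC in the libraries labelled COV434 read 56.5, 73.8 and 80.2 FPKM untreated and 65.4, 73.4 and 48.9 FPKM treated. The groups overlapped, and the log2 difference of -0.17 had a 95% interval of -0.65 to 0.31.

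SLC11A2 (ENSG00000110911, chr12:50979401-51028566), the endosomal iron transporter, stood at 7.71, 8.73 and 8.41 FPKM in untreated libraries labelled KGN and at 8.64, 8.93 and 8.63 FPKM in treated ones. With the label COV434 it read 10.7, 9.01 and 8.74 FPKM untreated and 8.07, 7.34 and 9.73 FPKM treated. The groups overlapped in both lines. The log2 differences were 0.07 (95% interval -0.06 to 0.20) and -0.16 (-0.52 to 0.20), neither past the threshold.

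SLC40A1 (ENSG00000138449, chr2:189560579-189583758), the only known exporter of iron from cells, was at the edge of detection. Its reads were 1, 1 and 4 in untreated libraries labelled KGN and 3, 4 and 2 in treated ones. No read fell on it in any of the 6 libraries labelled COV434, which allows up to 0.0387 to 0.0463 FPKM per library, counting 3 reads as the limit of a count of 0. No fold change was taken, as any difference was not detectable at this depth.

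IREB2 (ENSG00000136381, chr15:78437431-78501456) encodes the iron regulatory protein IRP2, which is itself controlled mainly through protein breakdown. It stood at 14.2, 15.3 and 14.9 FPKM in untreated libraries labelled KGN and at 16.7, 16.3 and 14.9 FPKM in treated ones. In the libraries labelled COV434 it read 12.8, 15.5 and 14.8 FPKM untreated and 16.9, 13.8 and 8.95 FPKM treated. Treated library 3 was the lowest of the 12 for this gene, and the groups overlapped in both lines. The log2 differences were 0.10 (95% interval -0.03 to 0.24) and -0.15 (-0.66 to 0.37).

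BLVRA (ENSG00000106605, chr7:43758680-43807342), the main biliverdin reductase of adult cells, stood at 18.8, 17.9 and 17.4 FPKM in untreated libraries labelled KGN and at 17.6, 17.1 and 21.2 FPKM in treated ones. The ranges overlapped, and the log2 difference of 0.04 had a 95% interval of -0.15 to 0.24. Values with the label COV434 were 17.2, 25.3 and 23.5 FPKM untreated and 24.4, 25.2 and 26.8 FPKM treated, with a log2 difference of 0.22 (-0.18 to 0.62).

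BLVRB (ENSG00000090013, chr19:40447765-40465840), the second biliverdin reductase, also a flavin reductase, stood at 62.9, 63.4 and 58.5 FPKM in untreated libraries labelled KGN and at 71.7, 73.8 and 84.2 FPKM in treated ones. No treated library overlapped the untreated ones, and the log2 difference was 0.31 with an SE of 0.071 (adjusted p = 0.0169, limma). Without untreated library 3 the adjusted p-value was 0.0617. Levels in the libraries labelled COV434 were 62.9, 107 and 86.7 FPKM untreated and 93.3, 139 and 120 FPKM treated. The groups overlapped, while the treated library was 1.48, 1.3 and 1.38 times the untreated library of the same number. The log2 difference was 0.47 with a 95% interval of -0.08 to 1.01 (adjusted p = 0.721, limma) and 0.23 to 0.70 with the block (adjusted p = 0.11).

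HMOX1 (ENSG00000100292, chr22:35380361-35394214), the heme oxygenase whose product biliverdin is the substrate of BLVRA and BLVRB, is not one of the 10 members and is given beside them. It stood at 16.4, 16.7 and 15.2 FPKM in untreated libraries labelled KGN and at 104, 101 and 107 FPKM in treated ones. The treated libraries lay within a few FPKM of each other and far above the untreated ones, with a log2 difference of 2.62 and an SE of 0.05 (adjusted p = 3.48e-06, limma). With the label COV434 it read 4.67, 4.6 and 4.77 FPKM untreated and 6.42, 6.64 and 10.5 FPKM treated. No treated library overlapped an untreated one there, but the log2 difference of 0.61 (SE 0.19) did not pass (adjusted p = 0.392, limma). The adjusted p-value was 0.0377 with all 12 libraries in 1 limma fit, which shares the smaller KGN spread.

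GPX4 (ENSG00000167468, chr19:1103926-1106791) stood at 67.5, 70.6 and 63.8 FPKM in untreated libraries labelled KGN and at 51.1, 60.9 and 64.4 FPKM in treated ones. Treated library 3 lay inside the untreated range, and the log2 difference of -0.20 (SE 0.09) did not pass (adjusted p = 0.132, limma), though it did with voom (0.046). Among the libraries labelled COV434 it read 83.3, 179 and 158 FPKM untreated and 111, 190 and 144 FPKM treated. Library 1 was the lowest of both groups, and the log2 difference of 0.12 had a 95% interval of -0.61 to 0.85.

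**Figure D3:**
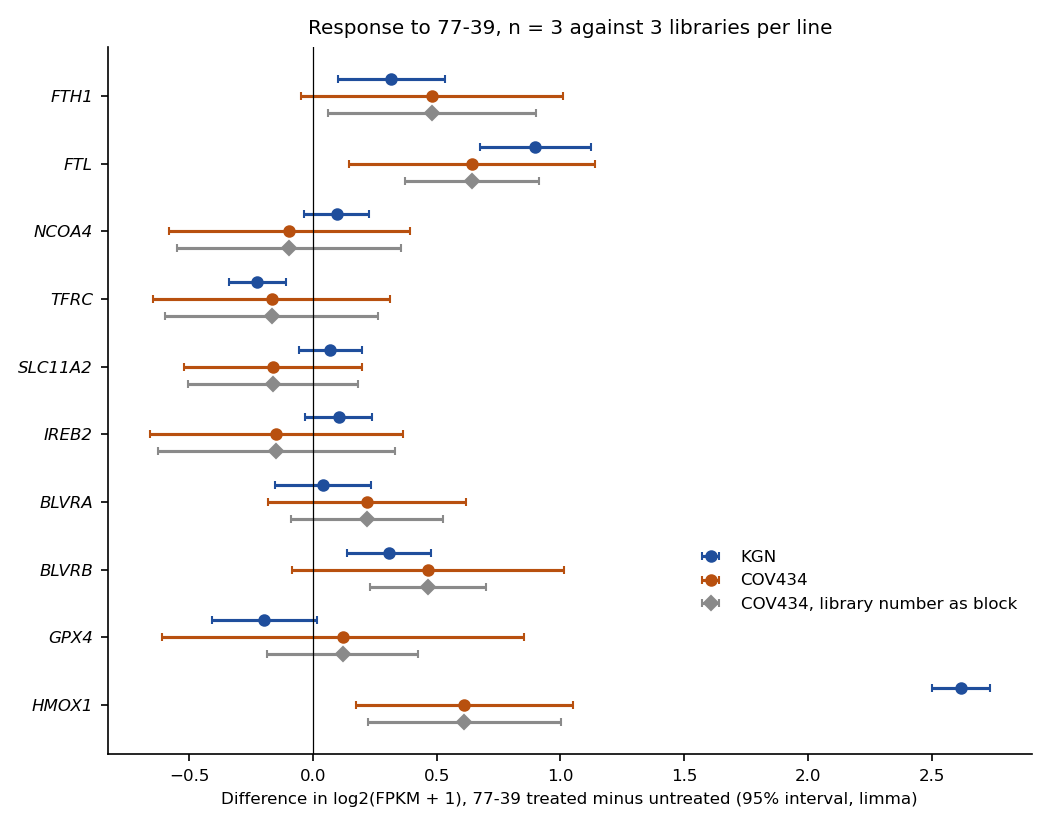
Difference in log2(FPKM + 1), treated minus untreated, with its 95% interval from limma, for 9 members and HMOX1 in each labelled line (3 against 3 libraries), and for COV434 with a block for library number. The intervals with the label COV434 are wider than those with the label KGN, and the block narrows those of FTL and BLVRB.

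The next comparison was the difference between the lines in response. None of the 9 members differed at an adjusted p-value of 0.05 in limma, where 3.6% of the 13127 genes tested did, none had an unadjusted p-value below 0.05, where 18% of genes did, and none was called by voom. FTL had a difference of 0.26 in log2, KGN response minus COV434 response, with a 95% interval of -0.20 to 0.71. For FTH1 it was -0.16 (-0.69 to 0.36), for BLVRB -0.16 (-0.75 to 0.43) and for TFRC -0.06 (-0.54 to 0.42). These intervals leave room for differences of the size of the responses themselves, so like responses were not shown. HMOX1 did differ, by 2.01 with an SE of 0.20 (adjusted p = 0.000836, limma).

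Untreated libraries were then compared between the labelled lines. FTH1, FTL, TFRC, GPX4 and NCOA4 were higher with the label COV434, and no member was lower. These were 5 of 9 tested members, where 69% of the 13098 genes tested passed, 36.4% higher and 32.6% lower with the label COV434. FTH1 averaged 1016 ± 145 FPKM (SD, n = 3) against 75.4 ± 4.66 FPKM, a log2 difference of 3.73 with an SE of 0.14 (adjusted p = 9.91e-07, limma). FTL averaged 2224 ± 325 FPKM against 320 ± 21.6 FPKM, a log2 difference of 2.78 with an SE of 0.15 (adjusted p = 5.46e-06, limma). The ranges of the untreated libraries lay far apart between the lines for both chains.

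TFRC averaged 70.2 ± 12.2 FPKM (SD, n = 3) with the label COV434 and 16.9 ± 0.743 FPKM with the label KGN, a log2 difference of 1.98 with an SE of 0.14. NCOA4 was higher by 0.74 in log2 (SE 0.12) and GPX4 by 0.98 (SE 0.28, adjusted p = 0.0188, limma). The GPX4 call was lost without untreated library 1, 2 or 3 labelled KGN or library 3 labelled COV434 (adjusted p = 0.0594, 0.0503, 0.0628 and 0.0691). BLVRB, BLVRA, SLC11A2 and IREB2 did not pass, with log2 differences of 0.44, 0.26, 0.17 and -0.04. Untreated library 1 labelled COV434 was the lowest of its group in 8 of 9 members, and without it BLVRA (0.41, adjusted p = 0.00222) and BLVRB (0.64, adjusted p = 0.00205) passed as well. HMOX1 went the other way, lower with the label COV434 by a log2 difference of -1.59 (SE 0.076). Keratins and the summed fibroblast markers moved with the labelled line, as given above, and their part in these differences was not tested.

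The scaling between the lines bears on these values. The voom fit moved the median difference of all genes tested from 0.02 to -0.18, and with it FTH1, FTL, TFRC, NCOA4 and GPX4 still passed, at 3.54, 2.58, 1.84, 0.56 and 0.78, while the sign of SLC11A2 turned (-0.016).

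**Figure D4:**
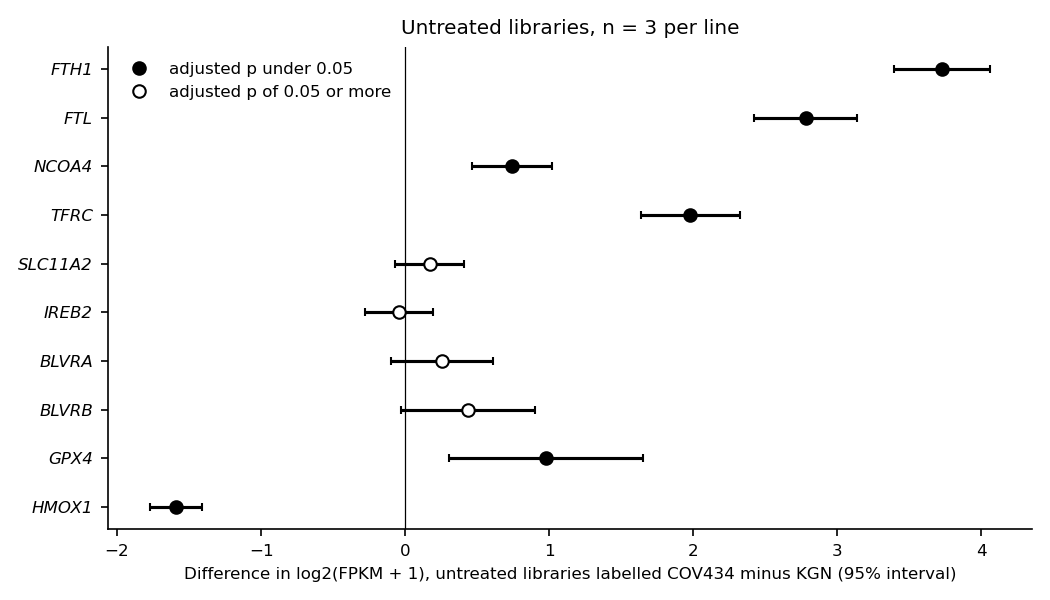
Difference in log2(FPKM + 1) between untreated libraries, COV434 minus KGN as labelled, with its 95% interval from limma (3 libraries per line). FTH1 and FTL are the farthest above 0 and HMOX1 lies below 0, while the intervals of SLC11A2, IREB2, BLVRA and BLVRB cross 0. With voom scaling SLC11A2 lies at -0.016.

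Ordered by FPKM, which is per length, FTL was the highest member in each of the 4 groups and FTH1 came next, and the values of both never overlapped each other or the third member. SLC40A1 was the lowest throughout and SLC11A2 was next, at means of 8.28 to 9.46 FPKM. GPX4 and BLVRB followed FTH1, and exchanged places between untreated (67.3 and 61.6 FPKM) and treated libraries labelled KGN (58.8 and 76.5 FPKM), without overlap in either group. TFRC stood below NCOA4 and BLVRA in the untreated libraries labelled KGN, overlapping with BLVRA, and above both in those labelled COV434. Neighbours that overlapped with the label COV434 were GPX4 and BLVRB in both groups, BLVRB and TFRC in untreated libraries, and TFRC and NCOA4, and IREB2 and SLC11A2, in treated ones.

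Other genes of iron and heme metabolism were taken as 8 lists of 101 genes in all, of which 74 were tested in the libraries labelled KGN. With 77-39, 21 rose and 8 fell, 39.2% together, beside the 34% of all genes. The 29 calls were 16 without treated library 2 (21.6%, beside 21.7% of all genes) and 18 without untreated library 3 (24.3%, beside 23.7%). They were 16 with no filter (16.2%, beside 8.98%) and 13 with all 12 libraries in 1 fit (17.6%, beside 9.76%). The median log2 difference was 0.08 over the listed genes. The list around GPX4 and lipid peroxides, the longest with 27 genes, held the most calls, with 9 of 21 tested genes higher and 2 lower. Its calls were 52.4% of its tested genes, beside 55.6% for iron sensing and ferritin turnover. The list holds more than defence genes. There, SLC3A2 and SLC7A11, the subunits of the cystine importer, rose by 1.11 (adjusted p = 9.13e-05, limma) and 0.89 in log2. SEPHS2, which makes the selenium donor for selenoproteins such as GPX4, rose by 0.93 and GPX8, a peroxidase of the endoplasmic reticulum, by 0.74. GCH1 (0.57), which starts tetrahydrobiopterin synthesis, and GCLM (0.51), a subunit of the enzyme that starts glutathione synthesis, rose as well. So did CHAC1 (0.47), ACSL4 (0.43) and TXNRD1 (0.31), while LPCAT3 (-0.42) and TRNAU1AP (-0.30) fell.

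Heme breakdown and transport had 4 of 8 tested genes higher and none lower, led by HMOX1, with LRP1 (0.42), the heme transporter SLC48A1 (0.26) and BACH1 (0.26), a heme-binding repressor of HMOX1. Iron uptake and transport had 2 of 6 higher, the metal importer SLC39A14 (0.50) and the lysosomal channel MCOLN1 (0.27), and none lower. In heme synthesis, with 12 genes tested, the enzyme PPOX (-0.58) was among the lower ones and the heme-binding PGRMC1 (0.20) was higher. Storage and chaperones had 1 of 3 lower, PCBP1 (-0.62), which delivers iron to ferritin. Sensing and ferritin turnover had 3 of 9 higher, TAX1BP1 (0.36), ATG7 (0.33) and ACO1 (0.24), and 2 lower, ZFP36L1 (-0.19) and ZFP36 (-0.18). Mitochondrial iron and iron-sulfur clusters had 2 of 16 higher, ISCU (0.40) and NFU1 (0.16), and 1 lower, NFS1 (-0.22). No gene of the list for iron export and its hormone was tested. LRP1, SLC48A1, BACH1, MCOLN1, PGRMC1, TAX1BP1, ATG7, ACO1, ZFP36L1, ZFP36, ISCU, NFU1 and NFS1 were named after their values were seen. So were CHAC1, ACSL4, TXNRD1, LPCAT3 and TRNAU1AP in the list around GPX4.

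With the label COV434, 0 of 83 tested genes of these lists passed an adjusted p-value of 0.05 in limma or in voom, while with all 12 libraries in 1 limma fit 6 did, 5 higher and 1 lower (7.23%, beside 4.05% of all genes). In the fit of this line alone, 5 higher and 8 lower ones had an unadjusted p-value below 0.05, as did 3.52% (higher) and 4.49% (lower) of all genes tested. BMP6, an inducer of the iron hormone hepcidin, had a log2 difference of -0.96 (adjusted p = 0.108, limma), was called lower with the library number as a block in limma and in voom, and was named after its value was seen. The 5 higher ones were HMOX1 (0.61), SLC48A1 (0.55), FDXR (0.50), UROS (0.49) and GCLM (0.47). Besides BMP6, the lower ones were CHAC1 (-0.71), NFE2L2 (-0.60), BACH1 (-0.51), HSCB (-0.45), SCARA5 (-0.44), PCBP1 (-0.39) and ZFP36L1 (-0.34). None of these 13 passed the threshold, and they too were named after their values were seen. CHAC1 and BACH1 had passed in the other direction with the label KGN, at 0.47 and 0.26, and their difference between the lines did not pass (adjusted p = 0.0651 and 0.1, limma).

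**Figure D5:**
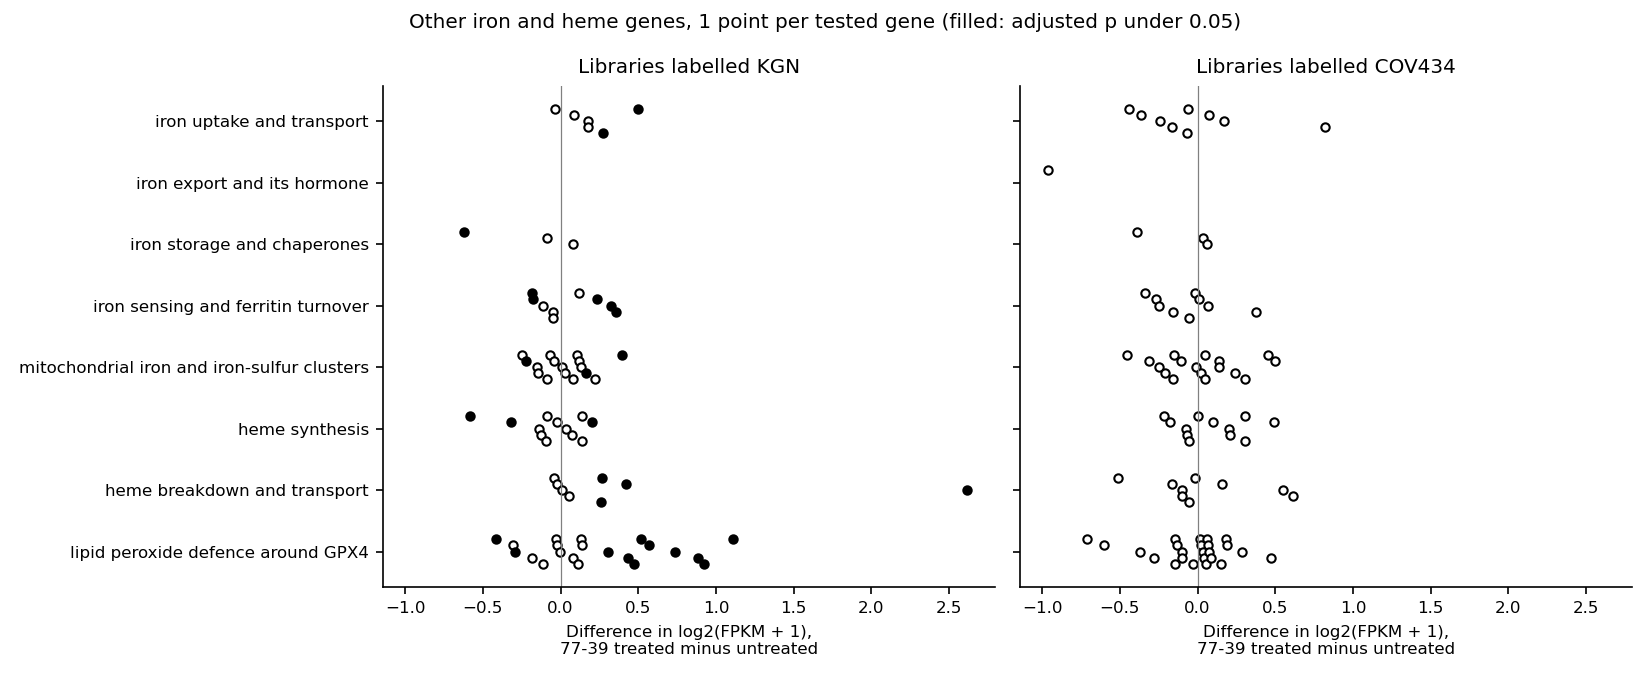
Difference in log2(FPKM + 1), treated minus untreated, for each tested gene of 8 iron and heme lists, by labelled line, 1 point per gene and filled where the adjusted p-value is under 0.05. With the label KGN 29 of 74 points are filled, HMOX1 being the farthest right at 2.62, and with the label COV434 none of 83 is.

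For each of the 9 tested members, the gene with the most similar profile was taken as the one with the smallest root-mean-square difference in log2(FPKM + 1), each gene centred on its own mean over the 12 libraries, among 13126 genes. The differences were smallest for IREB2 with NUP133 (0.062), NCOA4 with NAA50 (0.0624), SLC11A2 with KARS (0.068) and BLVRA with STARD10 (0.0783). They were larger for BLVRB with CNIH4 (0.103), GPX4 with ELOB (0.11), TFRC with TPD52L1 (0.141), FTH1 with HERC5 (0.142) and FTL with CD9 (0.246). The members' own root-mean-square spread ran from 0.122 for SLC11A2 to 1.92 for FTH1. The order of the differences thus does not rank closeness relative to that spread. The points share libraries and line differences, so these values are a description.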

How the data were processed

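RNA from both lines, untreated or given 77-39, was sequenced in 12 libraries. The authors aligned reads with HISAT2 2.0.5, as the submitters' processing notes name it, and deposited FPKM per gene, so values are scaled to gene length and library total. The counter is not given in the sources used here. The coordinates of 58735 of 58735 genes matched GENCODE 29 on GRCh38, although the notes name mouse builds and the extraction text speaks of retinas. FPKM times length gave whole reads for 100% of values (tolerance 0.05). The libraries' totals implied by the deposited FPKM were 1.073 to 1.103 times the recovered reads with the label KGN and 0.911 to 0.978 times with the label COV434. No library was identical to another.

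Each line was fitted with limma 3.58.1 (R 4.3.3), using its trended empirical Bayes step, on log2(FPKM + 1) of genes that averaged 1 FPKM or more in the libraries of the fit. The two-sided p-values were adjusted by Benjamini-Hochberg across all genes tested, and a call is an adjusted p-value under 0.05. Fold changes are on the log2(FPKM + 1) scale, which understates the change of low genes. The difference between lines was a contrast over all 12 libraries with 1 spread per gene for both lines. Untreated libraries were fitted apart. The script was tested on simulated data. Depth gives a limit of 3 reads for a count of 0, 0.152 to 0.2 FPKM per library for a gene of 1 kb, and it covers counting error only.

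Deviations of same-numbered treated and untreated libraries correlated at 0.4, 0.474 and 0.166 with the label COV434 over 12060 genes. Those of differently numbered libraries correlated at -0.469 to 0.154, the highest being untreated 3 with treated 2. Deviations sum to 0 within a group, so the negative values follow in part from the positive ones and add no support. Numbers, which come from the titles, were taken as pairing with the label COV434 from the same-number values. With the label KGN (-0.016, -0.018 and -0.019) and between untreated lines they were not.

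Named were all members, HMOX1, up to 10 called pathway genes per line by size of change, the nearest profile of each member, and the ferritin pseudogene row with the most reads. The values of 1 gene of the lists are not reported here. The members and lists were chosen with earlier results of these data known. The alternatives tried were 0.1 as pseudocount, a filter at 0.1 FPKM or none, median-ratio scaling, voom on recovered reads, the replicate block, all libraries in 1 fit, added pseudogene reads and leaving out each library. Voom with the block was added after the data were seen. All libraries in 1 fit gave each gene 1 spread for both lines. As the spread was wider with the label COV434, that setting tends to gain calls there and to lose them with the label KGN.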

Additional observations from a re-analysis of the deposited data

Results flagged for a closer look

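Among the members, HMOX1 and the pathway genes named by size of change, 4 genes passed a test for a different response to 77-39 between the labelled lines. The test took KGN response minus COV434 response in log2(FPKM + 1) over all 12 libraries with limma. It gave each gene 1 spread for both lines, though the spread was wider with the label COV434. For SLC3A2 the SE of the difference was 0.163, below the 0.178 of the COV434 response alone. Adjusted p-values near 0.05 may thus be too small here. HMOX1 differed by 2.006 (adjusted p = 0.000836) and kept this call in all 20 alternatives, and SLC3A2, a subunit of the cystine importer, differed by 1.139 (adjusted p = 0.00506) and kept it as well. SEPHS2, which makes selenophosphate, differed by 0.7729 (adjusted p = 0.0328), and PPOX, an enzyme of heme synthesis, by -0.5294 (adjusted p = 0.0271). Leaving out 1 library lost the call in 8 of 12 cases for each of SEPHS2 and PPOX, the 6 labelled KGN among them, with values of 0.678 to 0.921 and -0.585 to -0.484. Both calls were also lost with voom (adjusted p = 0.0505 and 0.0533), and that of SEPHS2 with no filter (0.0606). FDXR (-0.47, adjusted p = 0.0446, limma) and BMP6 (0.97), named after their values were seen, also passed. BMP6 had 1 read in untreated and 2 reads in treated libraries labelled KGN. In all, 7 of 84 tested list genes passed (8.33%), beside 3.6% of all genes. The cause of these differences was not tested.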

How the results depend on the processing

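Of 585 alternative values for the 9 tested members in the 4 comparisons, 549 kept direction and side of the threshold, 19 lost a call, 5 gained one and 12 changed sign. This count pools results that had passed with those that had not, so it does not measure how firm the calls were. Adding pseudogene reads alters the rows of FTH1 and FTL alone. With the label KGN, the 4 member calls were 2 with no filter, 2 with the replicate block (library numbers did not pair the samples there, and no library correlated best with its own number), 1 with all 12 libraries in 1 fit and 1 to 4 when libraries were left out. FTH1 lost its call with a filter at 0.1 FPKM (adjusted p = 0.0647), no filter (0.113), the block (0.075) and 1 fit (0.288), and BLVRB with no filter (0.0546), the block (0.0526) and 1 fit (0.362). With the label COV434, the 0 calls were 1 (FTL) with all libraries in 1 fit and 1 with voom and the replicate block, and the block alone changed no member call. Between the lines the count stayed 0 for the response and was 4 to 7 for untreated libraries.

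Between untreated libraries, SLC11A2 turned from 0.17 to -0.0157 with voom and -0.0158 with voom and the replicate block. Leaving out libraries turned BLVRA (KGN, -0.0499 to 0.0953), NCOA4 (COV434, -0.2839 to 0.0775), IREB2 (COV434, -0.3346 to 0.0906), GPX4 (COV434, -0.2167 to 0.3322), TFRC (difference in response, -0.2229 to 0.0878), BLVRB (difference in response, -0.3368 to 0.0445), GPX4 (difference in response, -0.5294 to 0.0195) and IREB2 (untreated lines, -0.0975 to 0.0333). None of these had passed a test. The cause was not tested.

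Over all genes, the 4307 calls with the label KGN were 1237 in 1 fit and 2751 to 4128 with a library left out. The 5 with the label COV434 (1 higher, 4 lower) were 3 with a pseudocount or filter of 0.1, 1 with no filter, 25 with voom (12 higher, 13 lower), 87 with the block, 488 in 1 fit, 300 with voom and the block, and 1 to 7 with a library left out. The 472 between responses were 264 with voom and 126 to 975 with a library left out. Depth limits SLC40A1 alone among the members.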
